A study of Mus musculus with 4 samples.

Results

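The genes described here encode the estrogen receptors Esr1, Esr2 and Gper1, the progesterone receptor Pgr, the glucocorticoid receptor Nr3c1 and the mineralocorticoid receptor Nr3c2, together with Greb1, an estrogen target and receptor cofactor, and Hsd11b1, an enzyme that regenerates active glucocorticoid inside cells. They were taken from the deposited expression table by exact symbol. Of the 8 genes, 7 had a row among the 17335 genes of the table, and 6 reached the minimum of 0.1 FPKM in at least 1 library. Pgr stayed below that minimum, and Esr2 was not analysed here. Expression was measured by RNA-Seq in gonadal white adipose tissue (gWAT) of female mice fed a high-fat diet (HFD) for 18 weeks. The AD1KO mice carried a floxed Dnmt1 allele and Cre recombinase driven by the adiponectin promoter, which is active in adipocytes, so Dnmt1 in the other cells of the fat pad was not targeted. The fl/fl mice were littermates with the same floxed allele and intact Dnmt1. RNA of 4 animals per group was pooled in equal amounts, so each group is 1 library and the spread between animals was not measured. The comparison addresses whether Dnmt1 loss in adipocytes goes with a different level of Esr1 in the obese fat pad.

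Steroid receptors of the nuclear family are transcription factors that a hormone switches on. In the resting state they are held by heat-shock protein chaperones, and after binding the hormone they dimerise, settle on hormone response elements in DNA and recruit coactivators or corepressors. Estrogen receptor alpha, the product of Esr1, is known to restrain visceral fat gain and inflammation in adipose tissue, whereas glucocorticoids drive adipocyte differentiation and fuel handling through Nr3c1. Nr3c2 binds both aldosterone and glucocorticoids, and local enzymes decide how much active steroid reaches either receptor. Gper1 is a membrane receptor coupled to G proteins and is unrelated in structure to the others.

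Because the study follows CpG methylation at the Esr1 promoter, start-site sequences of Esr1 and of its classical targets Greb1 and Pgr are shown first. Each is the 250 bases just before an annotated RefSeq transcript start (windows of assembly GRCm38.p6), found at a single place in mm9 and written 5′ to 3′ on the strand of the gene. Capitals mark CpG dinucleotides, the substrate of DNA methyltransferases. For Esr1 the start shown is one that lies within the span of the gene, downstream of the outermost start.
Esr1, chr10:5636384-5636633, minus strand: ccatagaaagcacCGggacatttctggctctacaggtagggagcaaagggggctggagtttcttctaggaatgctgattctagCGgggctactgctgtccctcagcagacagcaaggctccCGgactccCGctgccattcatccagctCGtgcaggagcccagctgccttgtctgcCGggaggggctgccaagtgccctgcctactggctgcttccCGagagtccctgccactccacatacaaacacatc
Greb1, chr12:16807693-16807942, minus strand: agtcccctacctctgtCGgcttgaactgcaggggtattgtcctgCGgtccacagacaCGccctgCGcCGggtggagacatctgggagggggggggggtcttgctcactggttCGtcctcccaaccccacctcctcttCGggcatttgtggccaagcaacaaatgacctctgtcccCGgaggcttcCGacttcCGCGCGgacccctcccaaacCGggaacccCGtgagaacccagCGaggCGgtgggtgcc
Pgr, chr9:8899583-8899832, plus strand: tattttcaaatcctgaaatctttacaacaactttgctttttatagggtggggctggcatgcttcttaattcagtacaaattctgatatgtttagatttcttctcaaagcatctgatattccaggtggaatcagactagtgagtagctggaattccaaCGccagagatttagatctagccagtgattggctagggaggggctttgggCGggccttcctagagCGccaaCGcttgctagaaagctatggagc
The Esr1 window held 7 CpGs at a GC content of 59.6%, against a median of 6 CpGs and 52.4% GC over 32851 RefSeq windows of the same length. Its CpG number was thus ordinary, and 53.7% of all windows had fewer. The Greb1 window shown was denser, with 16 CpGs, and the Pgr window held 4. Esr1 and Greb1 each have another RefSeq start whose window, not shown, held 4 and 2 CpGs. The consensus estrogen response element, GGTCA and TGACC separated by any 3 bases, was found in none of the 3 windows and in 0.0639% of all windows. A GC box (GGGCGG on either strand) was present in the Pgr window and in 32.7% of all windows. The TATA box sequence (TATAAA on either strand) was also present at Pgr and in 12.4% of windows. Matches anywhere in a window were taken, and the one at Pgr lies on the opposite strand near the upstream end, far from the start. No methylation values were analysed here, so these sequences give the layout of the starts and not their methylation.

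Across the table, 15839 genes reached 0.1 FPKM in 1 library. Reads per gene were estimated from the steps in the low FPKM values at a depth of 17830000 for fl/fl and 17600000 for AD1KO, with a median of 576 reads per gene over both libraries. All ratios below compare AD1KO with fl/fl on the log2 scale after adding 0.01 FPKM, and 95% intervals are exact Clopper-Pearson intervals on estimated reads that cover counting error only. A gene was called higher or lower at a log2 ratio of at least 0.5 in size. The targeted gene, Dnmt1 (chromosome 9 of mm9, 20711650 to 20757317, minus strand), measured 6.99 FPKM in fl/fl and fell to 3.33 FPKM in AD1KO (log2 ratio -1.07). The row is for the whole gene and all cells of the tissue, not for the deleted exons in adipocytes. Dnmt3a fell from 9.02 to 4.88 FPKM as well, and Dnmt3b stood at 0.35 and 0.36 FPKM. Adipoq and Fabp4, defining adipocyte transcripts, were among the abundant transcripts of both libraries. The fl/fl library also contained transcripts of oviduct and uterine epithelium, such as Ovgp1 at 3.51 FPKM against 0.17 FPKM in AD1KO.

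Esr1 was the one receptor with a clear difference between the libraries, while Nr3c1 and Hsd11b1 were at nearly the same level in both. Of the 6 measured genes, 1 was higher in AD1KO (Esr1) and 1 was lower (Greb1), and 4 lay between the thresholds. Over all 15839 genes, 14.3% were higher and 19.1% were lower. Against that background 1 of 6 in each direction is near what the whole table gives, so the count says nothing particular about these genes. The median log2 ratio was 0.13 over the 6 genes and -0.04 over all genes.

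**Figure D1:**
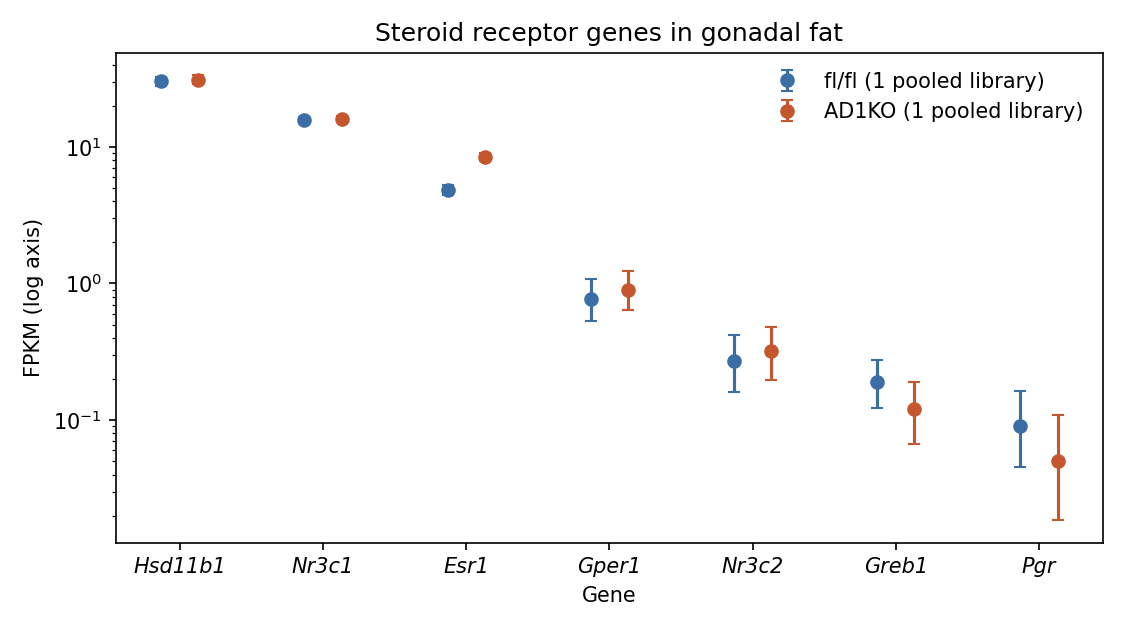
FPKM (log axis) of the 7 genes with a row in the table, in the fl/fl library (blue) and the AD1KO library (orange), each a pool of 4 animals. Bars are 95% counting intervals. The pair of Esr1 points, 4.82 and 8.44 FPKM, is separated beyond its bars, whereas the pairs of the other genes overlap.

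Levels per transcript length fell in the order Hsd11b1, Nr3c1, Esr1, Gper1, Nr3c2, Greb1 and Pgr in both libraries. In fl/fl they spanned from 30.12 FPKM for Hsd11b1 to 0.09 FPKM for Pgr. The counting intervals of neighbours in this order were apart, except those of Nr3c2 and Greb1 in fl/fl and those of Greb1 and Pgr in both libraries. Nr3c1 stood above Esr1 in each library, 3.26-fold in fl/fl and 1.88-fold in AD1KO. Between the corticosteroid receptors the gap was wider, with Nr3c1 above Nr3c2 58.2-fold in fl/fl and 49.7-fold in AD1KO.

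Esr1 (gene 13982, chromosome 10, 5340927 to 5734948, minus strand) encodes estrogen receptor alpha, the main nuclear receptor for estradiol. It was at 4.82 FPKM in fl/fl and 8.44 FPKM in AD1KO. These values correspond to an estimated 524 and 906 reads. The AD1KO library was the higher of the pair by 1.75-fold. The log2 ratio was 0.81 and its counting interval ran from 0.65 to 0.97, wholly above the 0.5 threshold. Esr1 held rank 1235 from the top by ratio among the tested genes, and 7.80% of them had a ratio at least as high. Among 3052 genes with a read total within 1.5-fold of that of Esr1, 5.28% were higher and 12.1% were lower. The named genes closest to Esr1 in both libraries, by Euclidean distance on the log2 scale, were Slc16a12 (4.87 and 8.69 FPKM), Abcb9 (4.66 and 8.51 FPKM) and Hdhd3 (4.61 and 8.37 FPKM). The whole-gene row sums all Esr1 transcripts, so use of the separate starts could not be read from the table.

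Transcript levels of cell type markers differed along with Esr1, and in bulk tissue fewer cells of a type and less RNA per cell cannot be told apart. All 12 adipocyte markers had ratios above 0, from 0.35 for Cebpa to 1.496 for Cfd, and 8 of them were called higher. Their summed level went from 20029 to 30634 FPKM, and their median ratio was 0.56. Adipoq, the hormone whose promoter drives Cre here, was at 1911 FPKM in fl/fl and 3318 FPKM in AD1KO, a log2 ratio of 0.80. Esr1 was 0.00252 of Adipoq in fl/fl and 0.00254 in AD1KO, so the pair kept nearly the same proportion. Scaled to the median of the adipocyte markers, a comparison chosen after the data were seen, Esr1 had a log2 ratio of 0.25.

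Markers of other cell types moved as well. All 8 mesothelial markers were above 0 and 6 were called higher, with a summed level of 98.2 FPKM in fl/fl and 175 FPKM in AD1KO and a median ratio of 0.76. Of the 6 smooth muscle markers 5 were called higher, their sum going from 233 to 455 FPKM and their median ratio being 1.17, led by Actg2, Cnn1 and Tagln, contractile proteins. The 10 macrophage markers were all called lower, with a sum of 6195 FPKM in fl/fl and 2723 FPKM in AD1KO and a median of -1.18. Among 10 stromal progenitor markers 1 was higher (Dpp4) and 2 were lower (Ly6a and Pi16), with sums of 2384 and 2430 FPKM and a median of 0.11. Of the 8 endothelial markers 1 was higher (Tie1), the sums were 83.2 and 99.7 FPKM, and the median was 0.33. Ratios at or above that of Esr1 were found for 3 adipocyte, 3 mesothelial and 5 smooth muscle markers, and for none of the stromal, endothelial or macrophage markers. The part of these shifts in the Esr1 value was not tested.

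Of the 12 oviduct and uterine epithelial markers, 9 were measured, and 7 of these were called lower in AD1KO, a count that was 2 with an added 1 FPKM. Ovgp1, an oviduct secretory glycoprotein, had an estimated 150 reads in fl/fl and 7 in AD1KO. Wfdc2 went from 3.64 to 0.39 FPKM, and Cldn3 from 1.18 to 0.60 FPKM. Pax8 and Calb1, with about 11 and 19 reads in fl/fl, were listed at 0 in AD1KO. The summed level of the list was 19.1 FPKM in fl/fl and 12.9 FPKM in AD1KO, of which Krt7, a keratin that mesothelium also expresses, made up 7.64 and 10.25 FPKM. Female reproductive epithelium is a known site of Esr1, Pgr, Greb1 and Ltf expression. The part of these markers in the Esr1, Greb1, Pgr and Ltf values was not tested.

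**Figure D2:**
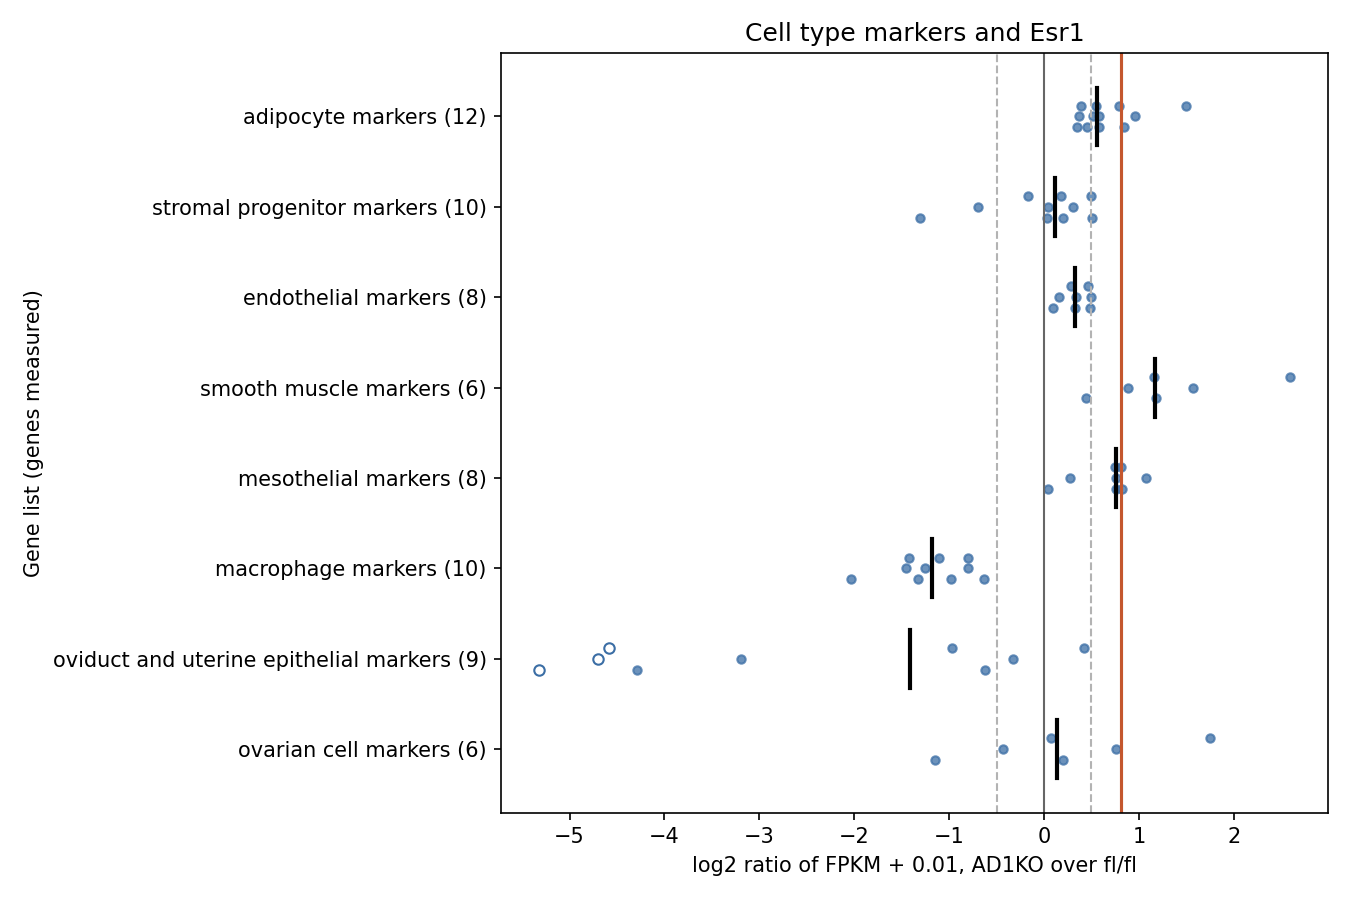
Log2 ratio (FPKM plus 0.01, AD1KO against fl/fl) for each measured gene (points) of 8 cell type marker lists. Black bars are list medians, the orange line is Esr1 at 0.81 and dashed lines mark 0.5 in either direction. Open points are genes listed at 0 in 1 library, whose position is set by the added 0.01 FPKM and which entered the medians at 3 reads or, at 3 reads or fewer in the other library, not at all. Adipocyte, endothelial, mesothelial and smooth muscle markers lie on the side of Esr1 and macrophage markers on the other side.

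Gper1 (gene 76854, listed as Gpr30 in the GENCODE annotation, chromosome 5, 139899105 to 139903754, plus strand) encodes the membrane estrogen receptor. It was at 0.77 FPKM in fl/fl and 0.90 FPKM in AD1KO, about 33 and 38 reads. The log2 ratio was 0.22, and its interval of -0.49 to 0.94 left a difference in either direction undetectable at this depth. Esr1 exceeded Gper1 6.26-fold in fl/fl and 9.38-fold in AD1KO. Esr1 was thus the prevalent estrogen receptor transcript of the pair in both fat pads.

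Greb1 (gene 268527, chromosome 12, 16677421 to 16807692, minus strand) is induced by estrogen in breast and uterine cells and its product binds estrogen receptor alpha. It was at 0.19 FPKM in fl/fl and 0.12 FPKM in AD1KO, about 26 and 16 reads. The log2 ratio of -0.62 passed the threshold for lower, but its counting interval ran from -1.68 to 0.27 and so held 0. Among 1046 genes with a similar read total, 31.5% were called lower. A difference in Greb1 was therefore not detectable at this depth, and the call was lost with an added 0.1 FPKM.

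Pgr (gene 18667, chromosome 9, 8900419 to 8965425, plus strand) encodes the progesterone receptor, a classical estrogen-induced gene. Its values of 0.09 FPKM in fl/fl and 0.05 FPKM in AD1KO stand for about 11 and 6 reads. The log2 ratio was -0.74 with an interval of -2.58 to 0.70. Both estrogen targets were thus near the detection limit in these libraries, at 0.19 FPKM or less, alongside Esr1 at several FPKM.

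**Figure D3:**
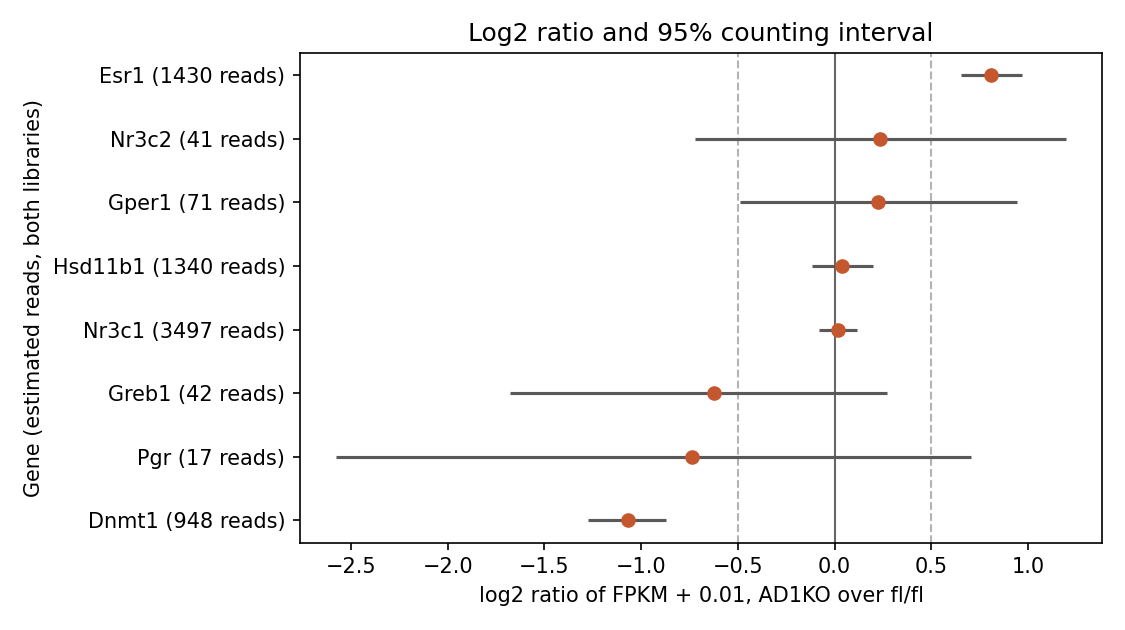
Log2 ratio (FPKM plus 0.01, AD1KO against fl/fl) (points) with the 95% counting interval (lines) for the 7 genes and for Dnmt1, with estimated reads over both libraries beside each name. Dashed lines mark 0.5 in either direction. The intervals of Esr1 and Dnmt1 lie wholly beyond a dashed line, those of Nr3c1 and Hsd11b1 are short and hold 0, and those of Gper1, Nr3c2, Greb1 and Pgr are wide and hold 0.

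Nr3c1 (gene 14815, chromosome 18, 39570199 to 39650955, minus strand), the glucocorticoid receptor, was at 15.71 FPKM in fl/fl and 15.90 FPKM in AD1KO. With about 1749 and 1748 reads it was the most deeply sampled receptor of the group. Its log2 ratio of 0.02 had an interval of -0.08 to 0.11, so counting error alone left no room for a difference of the threshold size between these libraries. Scaled to the adipocyte markers its ratio was -0.54, since those markers were higher while Nr3c1 was not. The nearest named genes were Atxn7l1 (15.81 and 15.91 FPKM), Pithd1 (15.59 and 15.75 FPKM) and Mettl26 (15.82 and 15.74 FPKM).

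Nr3c2 (gene 110784, chromosome 8, 79423341 to 79768911, plus strand), the mineralocorticoid receptor, was at 0.27 FPKM in fl/fl and 0.32 FPKM in AD1KO, about 19 and 22 reads. The log2 ratio of 0.24 had an interval of -0.72 to 1.20, so no direction was detectable. An antisense noncoding gene, Gm10649, shares 247 of the 6474 exon bases of Nr3c2. Whether counting used strand is not given in the sources used here, so reads there cannot be assigned. The nearest named genes were Fam198a and Sez6, each at 0.27 and 0.32 FPKM, and Hyal3 at 0.27 and 0.33 FPKM, which at such low values reflects the 2-decimal steps of the table.

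Hsd11b1 (gene 15483, chromosome 1, 195047824 to 195090248, minus strand) is the reductase that converts inactive 11-keto glucocorticoid to the active hormone. It was the most abundant gene of the set, at 30.12 FPKM in fl/fl and 30.94 FPKM in AD1KO, about 665 and 675 reads. The log2 ratio was 0.04 with an interval of -0.12 to 0.20. Relative to the adipocyte markers the ratio was -0.52. Its nearest named genes were Med30 (29.97 and 30.80 FPKM), Tmem30a (29.90 and 31.31 FPKM) and Dctn1 (30.64 and 31.30 FPKM).

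The partners of Hsd11b1 did not stay as level. H6pd, which supplies NADPH to Hsd11b1 in the endoplasmic reticulum, was at 51.33 FPKM in fl/fl and 66.38 FPKM in AD1KO, a ratio of 0.37 that stayed under the threshold. Hsd11b2, which performs the opposite, inactivating step, was higher in AD1KO at 1.36 FPKM against 0.61 FPKM. Its log2 ratio of 1.14 rested on about 19 and 42 reads, and the interval began at 0.35. Hsd11b1 exceeded Hsd11b2 49.4-fold in fl/fl and 22.8-fold in AD1KO. The activating enzyme thus stayed far above the inactivating one in both libraries.

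Genes around the receptors were grouped by role, and the counts of each list stand beside 19.1% lower and 14.3% higher over all genes. Among 12 measured other steroid and related orphan receptors, 1 was higher and 1 was lower, with a median of 0.20. The higher count became 3 under each of the 3 other scalings. The higher one was Paqr9, a progestin receptor family member, at 46.54 and 67.59 FPKM, and the lower one was Vdr, the vitamin D receptor, at 0.79 and 0.38 FPKM, named after its value was seen. Esrra, an orphan receptor that drives mitochondrial genes and does not bind estrogen, was at 20.34 and 17.71 FPKM, a ratio of -0.20.

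Chaperone and coregulator genes were counted beside 19.1% lower and 14.3% higher over all genes. Shares among genes with a read total within 1.5-fold of that of a list gene varied with the gene. They were 12.5% lower and 7.99% higher around the cochaperone Stip1, and 12.3% and 5.11% around the coactivator Ncoa1. Around the abundant chaperone Hspa8 they were 13.9% lower and 16.8% higher, the latter above the share over all genes. Stip1 and Ncoa1 were named after their values were seen. The low counts here thus say nothing particular about these lists. Of 12 chaperones and cochaperones, 1 was lower, the constitutive heat-shock protein Hspa8, at 647 FPKM in fl/fl and 409 FPKM in AD1KO, and none was higher. Their median ratio was -0.16, and their summed level was 1599 FPKM in fl/fl and 1284 FPKM in AD1KO. Ratios were below 0 for 11 of the 12, and for 53.8% of all tested genes. Of the 11, 4 turned above 0 under upper quartile scaling. Of 21 coactivators and corepressors, 1 was lower and none was higher, with a median of -0.13. The lower one was Ncoa3, a p160 coactivator of estrogen receptor alpha, at 7.26 and 4.34 FPKM with a ratio of -0.74. Nrip1, a corepressor that estrogen induces, had the top ratio of this list, 0.40, at 4.50 and 5.94 FPKM. Med1, Pias1, Smarca2 and Ncoa4 had ratios of -0.38, -0.48, 0.26 and 0.20.

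Enzymes that make or inactivate estrogens were called in both directions, as were genes of the whole table. Cyp19a1, the aromatase, was not analysed here. Of 14 measured genes, 4 were lower and 2 were higher, against 19.1% and 14.3% over all genes, with a median of 0.08. Only 1 of the 14, a higher one, had its whole counting interval beyond the threshold. Upper quartile scaling turned the lower and higher counts to 2 and 4. Sult1a1, which sulfates estrogens, was among the higher genes and went from 59.89 to 85.81 FPKM (ratio 0.52). Cyp1b1, which hydroxylates estradiol, fell from 8.77 to 5.89 FPKM, a ratio of -0.57. Hsd17b11 was at 54.51 and 38.53 FPKM and lay at the threshold with -0.50, next to Hsd17b8 (listed as H2-Ke6) at 33.21 and 23.51 FPKM, which was not called. Hsd17b2 and Ugt1a1, also called lower, had 6 and 16 reads over both libraries and were named after their values were seen, and reads of Ugt1a1 can be shared with its sister transcripts. Hsd17b4, which oxidises estradiol to estrone, had a ratio of 0.46 at 121 and 166 FPKM.

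Of 16 measured genes of other steroid hormone synthesis and inactivation, 5 were lower and 5 were higher, with a median of 0.20, or 3 and 2 with an added 1 FPKM. Serpina6, the plasma carrier of glucocorticoids, rose from 0.71 to 2.01 FPKM (ratio 1.49), and Srd5a1, which reduces testosterone, from 0.77 to 1.42 FPKM (ratio 0.87). Star, which delivers cholesterol to mitochondria, was at 1.42 and 2.41 FPKM, whereas Cyp11a1, the first enzyme of steroid synthesis, was at 1.63 and 0.73 FPKM. Akr1c14 and Akr1c18, reductases that inactivate androgens and progesterone, were lower with ratios of -0.72 and -0.63. These genes were under 4 FPKM. Stard3, which binds cholesterol in late endosomes, was called lower at a higher level, from 21.17 to 14.40 FPKM, with a ratio of -0.56 and an interval of -0.72 to -0.39. Only 1 of the 16 genes, Serpina6, had its whole counting interval beyond the threshold. Stard3 was named after its value was seen.

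**Figure D4:**
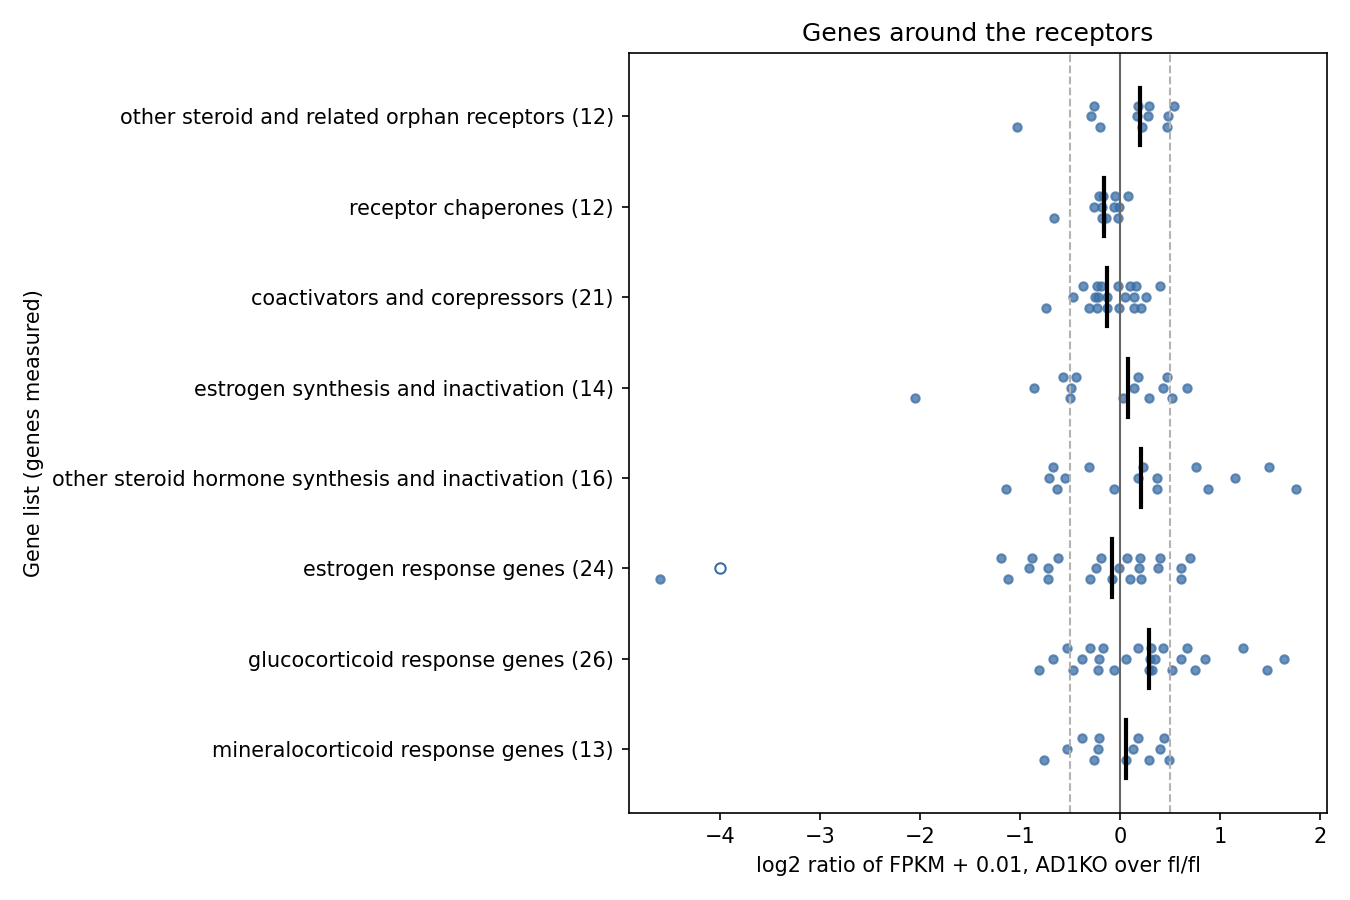
Log2 ratio (FPKM plus 0.01, AD1KO against fl/fl) for each measured gene (points) of 8 lists around the receptors, with the number of measured genes in brackets. Black bars are list medians and dashed lines mark 0.5 in either direction. The open point is Areg, listed at 0 in AD1KO with 3 reads in fl/fl, which was left out of the median. Most chaperones and coregulators lie between the dashed lines, and the response genes spread to both sides.

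Known estrogen response genes did not move one way with Esr1. Of 24 measured genes, 9 were lower and 3 were higher, against 19.1% and 14.3% over all genes. Of these, 3 and 1 had the whole counting interval beyond the threshold. The median was -0.14, or -0.08 without Areg. Counted at a minimum of 1 FPKM, 5 were lower and the median was 0.03. Ltf, the uterine estrogen target lactoferrin that neutrophils also make, fell from 5.09 to 0.20 FPKM, about 238 and 9 reads. Susd3 fell from 18.42 to 8.44 FPKM (ratio -1.13) and Ccnd1, the cyclin of cell cycle entry, from 17.39 to 9.25 FPKM (ratio -0.91). The 3 higher genes were Stc2, a secreted glycoprotein, at 5.35 and 8.68 FPKM (ratio 0.70), the angiogenic factor Vegfa at 21.34 and 32.51 FPKM (ratio 0.61), and Ddit4 at 17.02 and 25.89 FPKM (ratio 0.60). Ltf fell together with the oviduct and uterine epithelial markers given above, and their part in its value was not tested.

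Glucocorticoid response genes had the highest median of the pathway lists, 0.29, although Nr3c1 itself was level. Of 26 measured genes, 8 were higher and 3 were lower, and 4 and 1 of these had the whole counting interval beyond the threshold. The metallothioneins Mt1 and Mt2, which bind zinc and respond to metals as well as glucocorticoid, rose from 236 to 554 FPKM (ratio 1.23) and from 231 to 639 FPKM (ratio 1.47). Tat, the liver enzyme of tyrosine breakdown, rose from 0.35 to 1.11 FPKM, a ratio of 1.64 on about 14 and 44 reads. The 3 lower genes were the phosphatase Dusp1 at 38.25 and 21.81 FPKM (ratio -0.81), Errfi1 at 9.24 and 5.78 FPKM (ratio -0.68) and the NF-kappa B inhibitor Nfkbia at 49.43 and 34.25 FPKM (ratio -0.53). Fkbp5, Tsc22d3 and Sgk1, the usual transcript readouts of the active receptor, had ratios of -0.21, 0.18 and -0.39 and were not called. The summed adipocyte markers were higher and the macrophage markers lower in the same library, and the part of either in these counts was not tested.

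Mineralocorticoid response genes shared 6 genes with the glucocorticoid list. Of 13 measured, 2 were lower and none was higher, with a median of 0.06. Under the other scalings 1 was lower and 1 or 2 were higher. Ptgds, a prostaglandin synthase among the genes called lower, had 8 reads over both libraries and was named after its value was seen. Edn1, Scnn1a and Atp1b1 had ratios of 0.49, 0.44 and 0.40.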

How the data were processed

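RNA of gWAT from 4 female mice per group was pooled, selected with oligo-dT beads and sequenced on BGISEQ-500 as 1 library per group. Per the study's methods, clean reads were aligned to mouse mm9. The submitters' processing notes name mm9 and mm10. The aligner, quantifier and use of strand are not given in the sources used here. The authors deposited FPKM values (fragments normalised for gene length and for depth), with 0 written as 0.01. The authors' own fold change, P-value and FDR columns of the same comparison were not used. Bisulfite sequencing of the diet groups was not used here.

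Values of 0.01 were set back to 0. The log2 ratio was computed after adding 0.01 FPKM, over genes with at least 0.1 FPKM in 1 library, with calls at 0.5, the study's threshold. With 1 pooled library per group no test was run and no p-value was computed, and differences have no replicate check. Adding 0.01 understates the change of low genes detected in both libraries. For a gene listed at 0 in 1 library the added value sets the ratio, which can overstate the change. The oviduct and uterine epithelial median was -3.19 in this way. It was -1.41 with genes at 0 put at 3 reads or left out. Reads were estimated by finding the depth of each library and 1 length correction (121 bases) that turn low FPKM values of genes of 300 to 1000 bases into whole numbers. This gave 17830000 reads for fl/fl and 17600000 for AD1KO, and 89.3% of 252 and 86.8% of 242 such values lay within 0.1 of a whole read. The estimate was chosen after the data were seen. Reads carry no molecular identifiers, so intervals cover counting error only, and a listing of 0 allows up to 3 reads. The steps were tested on simulated data.

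The genes and 18 lists were chosen with earlier results of these data known. Named genes are the 8 of the set, Dnmt1, 8 fixed partner genes, the 3 highest and 3 lowest ratios of each list at 1 FPKM or more, all genes of marker lists, and the 3 nearest genes to each of 4 members. Some genes that this rule names are not reported here. Positions are from GENCODE M1 (mm9), sequences and windows from RefSeq (GRCm38.p6), matched exactly to mm9. Alternatives were other scalings, pseudocounts, filters and thresholds. Intervals were computed with SciPy 1.17.1 and tables handled with pandas 2.3.3 and NumPy 2.4.6 under Python 3.11.15. Figures were drawn with Matplotlib 3.10.9.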

Additional observations from a re-analysis of the deposited data

How the results depend on the processing

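No paired analysis was possible because each group holds a single pooled library. For the 7 genes, 49 values under other scalings, pseudocounts and marker scalings gave 45 within the counting interval, 4 beyond it and none with a reversed direction of a called gene. Esr1 ranged from 0.70 to 0.90 under the other scalings and pseudocounts, and was 0.25 when scaled to the adipocyte markers, a scaling added after the data were seen. Its call as higher was lost at a threshold of 1 (count 0). The lower count, Greb1 alone, was 0 with a pseudocount of 0.1 or 1 FPKM, a minimum of 1 FPKM, at least 50 reads (added later), a threshold of 1 or the whole interval past 0.5, and was 2 with no filter, where Pgr joined. Over all tested genes, 1661 were lower and 965 higher with a pseudocount of 1 FPKM, 1417 and 910 at a threshold of 1, and 1318 and 666 with the whole interval past 0.5. The higher count was 1281 at a minimum of 1 FPKM and 1334 at 50 reads. Upper quartile scaling gave 2609 lower and 2795 higher genes, against 3029 and 2265 as deposited, and moved the median of all genes from -0.04 to 0.05. The median of the mammary epithelial markers, -2.00 over 4 genes, was 0.14 at a minimum of 1 FPKM or 50 reads, where 1 gene, Trps1, remained. The cause was not tested for values other than those set by fewer genes or a stricter rule. Depth limited Gper1, Nr3c2, Greb1 and Pgr, each with 71 reads or fewer over both libraries, and the pooling of animals limited every comparison.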

Other observations

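Ovarian transcripts, a further check of what the fat pads held, were low in both libraries. Of 11 ovarian cell markers, 9 had a row and 6 were measured, with 1 lower (Cyp11a1), 2 higher (Star and Cyp17a1) and a median of 0.14. Inha, a subunit of inhibin made by granulosa cells, was at 0.92 FPKM in fl/fl and 0.97 FPKM in AD1KO. Foxl2, which marks granulosa cells, had about 4 reads in fl/fl and was listed at 0 in AD1KO.

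Of 8 mammary epithelial markers, 4 were measured and 2 were lower. Krt5 and Csn3, with about 9 and 2 reads in fl/fl, were listed at 0 in AD1KO, and Trps1, which fat tissue also expresses, was at 2.41 and 2.65 FPKM. With genes at 0 put at 3 reads, or left out where the other library had 3 reads or fewer, the median of the list was 0 over 3 genes. The same treatment gave the oviduct and uterine epithelial list a median of -1.41 over 8 genes.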
